A study of Mus musculus with 4 samples.

Results

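At postnatal day 7 (P7), 287 cells of the mouse hypothalamus carried abundant RNA of both Ccno and Foxj1, genes of cells that are building many motile cilia. The cells were chosen by 2 raw counts: at least 3 unique molecular identifiers (UMIs, each 1 captured RNA molecule) of Ccno and at least 2 of Foxj1. They made up 3.22% of the 8917 P7 cells (exact 95% Clopper-Pearson interval 2.86 to 3.61), of 43261 cells at all ages. The study traced hypothalamic cells from embryonic to early postnatal life by droplet single-cell RNA sequencing, with 1 sample at each of 4 ages (E11, E14, P0 and P7). Every group used here came from C57BL/6J mice of genotype Rax-CreERT2::Ai14, in which a dose of tamoxifen switches on the red reporter tdTomato in cells that express Rax, and in all cells that descend from them. The design text gives embryonic day 9 for that dose and the protocol 9.5. The sample titled P7 has 7.5 as its age label, and those titled E11 and E14 also have age labels later than their titles. Ages are named here by the titles. Live tdTomato-positive cells were sorted, so hypothalamic cells outside this lineage were not sampled, and the labels do not say how many animals were pooled.

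Ependymal cells line the brain ventricles and move cerebrospinal fluid with tufts of motile cilia. Each cilium needs its own basal body, a centriole, and a cell that becomes multiciliated makes a large number of centrioles after it has stopped dividing, many of them on ring-like platforms called deuterosomes. Geminin-family proteins with E2F partners start this programme, FOXJ1 and RFX factors drive the genes of the moving cilium, and cyclin O, the product of Ccno, is needed for centrioles to be made and docked in normal number. Work on airway and brain cells has shown that multiciliating cells reuse kinases and cyclins of the mitotic cycle without dividing.

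Because P7 was 1 sample, no test between groups was possible. Levels are CPM, the UMIs of a gene summed over a group and divided by all the group's UMIs, times 1e+06, ratios are ratios of summed CPM, and the 95% intervals (exact Poisson for levels, exact conditional for ratios, Clopper-Pearson for shares of cells) cover counting error only. Cells of 1 sample are not replicates. The chemistry reads 3-prime ends, so a gene's level did not scale with its length. The 287 cells were compared with 3 other P7 groups, all set by UMI counts: 495 Foxj1 cells without Ccno (Foxj1 at least 2, Ccno 0), the 159 of these with at least 5 UMIs of Tmem212, a gene of ciliated ependymal cells (a comparison added after the data were seen), and 482 dividing cells (Top2a at least 3, Foxj1 and Ccno 0). Median UMIs per cell were 20126 in the Ccno cells, 13071, 15321 and 11906.5 in these groups, and 11174 over all P7 cells. A gene counts as past the fold where the ratio of (CPM + 5) was at least 2 or at most 0.5, among genes with at least 5 CPM in the pair of groups pooled. Ccno and Foxj1, which chose the cells, are in no such count. A gene under 5 CPM in either group passes the filter only through the other group. It cannot be counted as higher in the group where it was under 5 CPM. The Foxj1 groups were split by Ccno, so genes that vary with Ccno differ between them by construction.

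In the 287 cells Ccno ran from 3 to 52 UMIs per cell with a median of 17, and Foxj1 from 2 to 60 with a median of 30. These values chose the cells and are given as a description. The 23 cells just inside the threshold, with 3 Ccno UMIs, held Deup1 at 562 CPM, against 374 CPM in the 33 Foxj1 cells with 2 Ccno UMIs and 187 CPM in the 89 with 1, so the edge of the group was gradual. On the Foxj1 side, 10 cells had at least 3 Ccno UMIs but 0 or 1 of Foxj1, and they had Deup1 at 6.65 CPM and no Mcidas UMI.

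**Figure D1:**
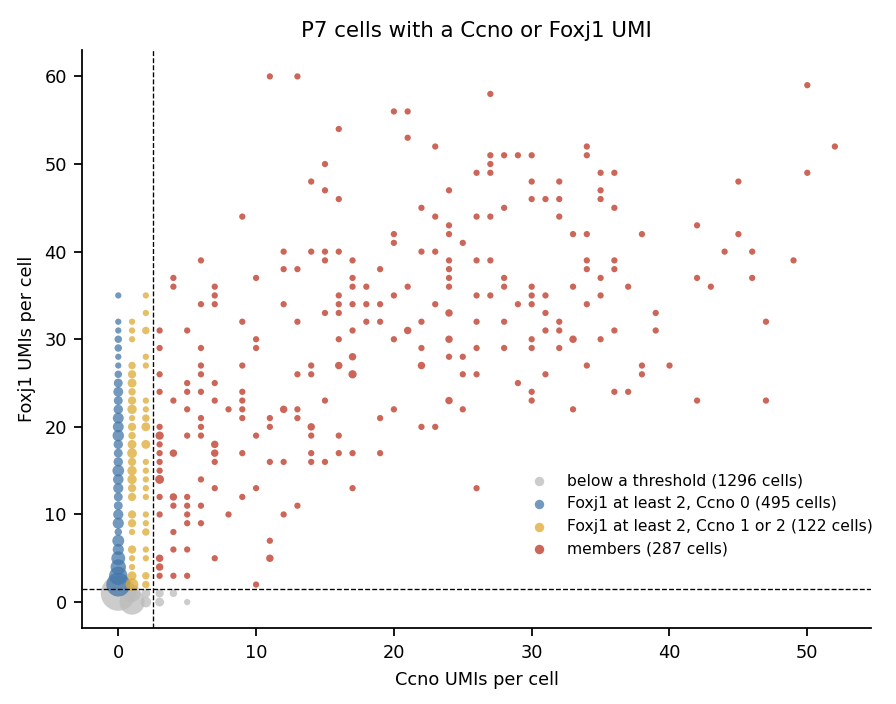
P7 cells with a Ccno or Foxj1 UMI, by Ccno UMIs per cell (x axis) and Foxj1 UMIs per cell (y axis). The area of a point grows with the number of cells at that pair of counts, colours give the groups and dashed lines the thresholds. The 287 members spread from 3 to 52 Ccno UMIs, while the 495 Foxj1 cells without Ccno stay at 35 Foxj1 UMIs or fewer.

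Of 12 ependymal marker genes, 11 were past the fold higher in these cells than in the 8630 other P7 cells and 0 lower, where 1740 of all 12360 genes (14%) were higher and 2640 (21.4%) lower. Rsph1, of the radial spokes of the cilium, was at 1353 CPM against 79.8 CPM, and Rarres2, a secreted protein of ependymal cells, at 737 CPM against 65.4 CPM. The exception was S100b, a marker of mature ependymal and other glial cells, at 53.2 CPM against 93.0 CPM. A median of 11 of the 12 markers was detected per cell, and 276 of the 287 cells had at least 8. Foxj1 chose the cells, so markers that vary with Foxj1 are high in them in part by that choice. In the 159 Foxj1 cells without Ccno and with Tmem212 the median was 12, and all 159 had at least 8. Tmem212, which chose those 159, is among the 12 markers. Top2a and Cdk1, the other marker genes given with the name, each had a UMI in 272 of the 287 cells. Every one of the 287 cells had a tdTomato UMI, as had all but 74 of the 8630 other P7 cells of this sorted sample. Whether they go on to become ependymal cells cannot be read from 1 age. Scrublet, a caller of doublets (droplets holding more than 1 cell), marked 16 of the 287 cells (5.57%), against 2.68% of all P7 cells, and these were kept in the main values. Of the 287 barcodes, 3 also occur in a run of another age, as do 72 over all P7 cells.

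UMIs in cells chosen by genes of other cell types set a floor for shares of cells. Whether these UMIs came from free RNA in the droplets, from doublets or from low expression was not tested. In 1605 P7 cells with at least 5 UMIs of the neuronal gene Snap25 (median 24845 UMIs), 5.55% had a Ccno UMI, 18.9% a Foxj1 UMI, 9.35% a Deup1 UMI and 0.810% an Mcidas UMI. In 3049 cells with at least 3 UMIs of Pdgfra, a gene of oligodendrocyte precursors (median 8765 UMIs), the shares were 3.94%, 8.89%, 3.71% and 0.558%.

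The promoters of 5 genes are shown because the results turn on these genes: Ccno, which chose the cells, its neighbour Mcidas, and 3 cell cycle genes whose levels differed in them. Ccno (ENSMUSG00000042417) lies on the plus strand at chr13:112987802-112990777 (GRCm38), and Mcidas (ENSMUSG00000074651), which encodes multicilin, follows it on the same strand at chr13:112993845-113000394, 3067 bases on. Cdc20b (ENSMUSG00000078926), the host gene of Mir449a, Mir449b and Mir449c, starts 34716 bases after Mcidas on that strand. Each stretch is the 250 bases before the RefSeq start on GRCm38.p6, written 5′ to 3′ on the gene's strand. Capitals mark matches on either strand to the RFX half-site GTTGCC, the CCAAT box CCAAT, the CHR element TTTGAA and the E2F core GCGGGAA or GCGCGAA, motifs known from ciliary (RFX) and cell cycle promoters.
Ccno, chr13:112987552-112987801, plus strand: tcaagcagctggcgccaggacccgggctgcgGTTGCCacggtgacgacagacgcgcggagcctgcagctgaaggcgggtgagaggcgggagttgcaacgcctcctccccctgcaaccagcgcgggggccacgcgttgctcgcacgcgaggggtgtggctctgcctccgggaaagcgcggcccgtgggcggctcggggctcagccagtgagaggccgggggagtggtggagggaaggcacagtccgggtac
Mcidas, chr13:112993618-112993867, plus strand: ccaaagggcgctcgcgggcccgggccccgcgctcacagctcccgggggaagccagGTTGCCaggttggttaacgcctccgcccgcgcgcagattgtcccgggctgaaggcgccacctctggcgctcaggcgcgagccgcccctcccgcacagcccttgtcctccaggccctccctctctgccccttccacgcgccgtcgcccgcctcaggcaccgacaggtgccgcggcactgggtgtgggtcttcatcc
Top2a, chr11:99024190-99024439, minus strand: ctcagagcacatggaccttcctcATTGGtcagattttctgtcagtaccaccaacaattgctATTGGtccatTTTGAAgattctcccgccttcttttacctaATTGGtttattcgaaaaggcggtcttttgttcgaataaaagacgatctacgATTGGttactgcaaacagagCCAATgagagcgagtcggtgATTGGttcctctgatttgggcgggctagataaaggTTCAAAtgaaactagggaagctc
Cdk1, chr10:69352913-69353162, minus strand: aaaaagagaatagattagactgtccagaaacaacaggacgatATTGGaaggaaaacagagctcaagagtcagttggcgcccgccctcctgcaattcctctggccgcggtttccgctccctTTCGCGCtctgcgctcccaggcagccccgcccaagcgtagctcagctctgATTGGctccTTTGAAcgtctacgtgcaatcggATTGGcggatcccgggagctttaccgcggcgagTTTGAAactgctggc
Mki67, chr7:135716380-135716629, minus strand: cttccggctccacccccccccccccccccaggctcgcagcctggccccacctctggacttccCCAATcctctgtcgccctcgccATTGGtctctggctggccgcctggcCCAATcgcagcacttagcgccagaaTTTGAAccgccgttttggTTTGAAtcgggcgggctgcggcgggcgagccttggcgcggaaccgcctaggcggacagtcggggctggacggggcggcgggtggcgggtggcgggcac
The Ccno and Mcidas stretches each held 1 RFX half-site and none of the other motifs. Those of Top2a, Cdk1 and Mki67 each held 2 CHR elements, with 6, 3 and 3 CCAAT boxes, and that of Cdk1 also an E2F core. Over all 32851 RefSeq promoters of this length, 10.4% held the RFX half-site, 33.8% a CCAAT box, 16% a CHR element and 5.00% the E2F core. A match describes letters only. The last 23 bases of the Mcidas stretch and the last 26 of the Cdk1 stretch lie inside the GENCODE gene.

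Among the transcription regulators, 5 genes were past the fold higher in the Ccno cells than in Foxj1 cells without Ccno and 2 were lower (8.15% and 12.2% of all genes). Mcidas, the geminin-family activator that starts multiciliation, had 765 UMIs in 219 of the 287 cells (76.3%), from 0 to 10 per cell with a median of 2. Its level was 137 CPM (95% interval 127 to 147), against 0.682 CPM in Foxj1 cells without Ccno, 1.42 CPM in the 122 Foxj1 cells with 1 or 2 Ccno UMIs and 0.469 CPM in dividing cells. Against the Foxj1 cells without Ccno this was 200.3-fold (95% interval 85.5 to 619), resting on 5 UMIs in the latter. Foxn4, a forkhead factor of multiciliated cells, was at 132 CPM against 3.00 CPM, 43.9-fold (95% interval 28.8 to 70.4). Myb, a transcription factor that acts early in multiciliogenesis, was at 675 CPM against 53.9 CPM, 12.5-fold (95% interval 11.3 to 13.9), and 97.9% of the cells had a UMI. The log2 ratio of Myb was 3.53 over Foxj1 cells without Ccno and 2.19 over those with Tmem212. Trp73, which encodes the p53 relative p73 and is needed for multiciliated cells, was at 67.4 CPM against 25.2 CPM. Cdc20b, of the same stretch of chromosome 13 as Ccno and Mcidas, was at 14.8 CPM against 0.409 CPM. Mcidas, Foxn4 and Cdc20b were under 5 CPM in Foxj1 cells without Ccno. These genes passed the filter only through the Ccno cells, so they could not be counted as lower. Gpx8 lies within Cdc20b on the opposite strand, and whether the authors counted by strand is not given in the sources used here.

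The 2 lower were Rfx4, an RFX factor of neural progenitors, at 35.6 CPM against 81.5 CPM, and Id3, a BMP target, at 36.4 CPM against 206 CPM. Of the 19 regulators that passed the filter, 5 were thus higher and 2 lower, where 8.15% of all 12387 genes were higher and 12.2% lower. Mcidas, Foxn4 and Cdc20b, among the 5, passed the filter only through the Ccno cells. The list median was 0.07 on the log2 scale, against -0.09 over all genes. Gmnc, the geminin-family gene upstream of Mcidas, did not pass the filter, at 4.29 CPM in the Ccno cells and 3.27 CPM in the others. Of the genes that did not pass the fold, Rfx3 was at 76.1 CPM against 80.8 CPM and Rfx2 at 64.5 CPM against 54.2 CPM. E2f4, a partner of multicilin, also did not, at 39.5 CPM against 31.5 CPM. Gmnn, which encodes geminin itself, a protein of cycling cells that blocks repeat DNA licensing, was at 8.04 CPM against 99.3 CPM in dividing cells, 12.4-fold (95% interval 9.12 to 17.1) higher in the latter.

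Most genes of deuterosomes and centriole assembly were past the fold higher in the Ccno cells than in Foxj1 cells without Ccno. Ccno split these groups, so centriole genes that vary with it differ by construction. All 33 passed the filter, and 21 were higher with 0 lower (8.15% and 12.2% of all genes), a median of 1.29 on the log2 scale. Deup1, which encodes the scaffold of the deuterosome, ran from 0 to 56 UMIs per cell with a median of 21, and 97.6% of the cells had at least 1. Its level was 1087 CPM (95% interval 1059.8 to 1115), against 42.3 CPM in Foxj1 cells without Ccno, 25.7-fold (95% interval 22.9 to 28.9), 108 CPM in those with Tmem212 and 2.82 CPM in dividing cells. Plk4, the kinase that starts a new centriole, was at 184 CPM against 12.4 CPM (14.8-fold), Stil, its partner in the cartwheel, at 101 CPM against 3.68 CPM (27.5-fold), and Cep152, which recruits PLK4, at 35 CPM against 2.87 CPM (12.2-fold). Stil and Cep152 were under 5 CPM in Foxj1 cells without Ccno. They passed the filter only through the Ccno cells, so they could not be counted as lower. Poc1a, a protein of the centriole wall, was at 145 CPM against 7.91 CPM, 18.3-fold. Sass6 and Cenpj, of the cartwheel and of centriole length, were lower in level, at 34.1 and 29.7 CPM against 11 and 6.41 CPM.

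The centriole genes were also set against the dividing cells, which were chosen by Top2a and in which centriole assembly was not measured. Of the same 33 genes, 22 were past the fold higher than in the 482 dividing cells and 1 lower, where 17.9% of all 12319 genes were higher and 20.2% lower. Deup1, under 5 CPM in the dividing cells, passed the filter there only through the Ccno cells and could not be counted as lower. Plk4 was at 89.8 CPM in the dividing cells, Stil at 37.2 CPM and Cep152 at 13.5 CPM, so the Ccno cells held 2.05-fold, 2.72-fold and 2.60-fold those levels. Sass6 and Cenpj were at 35 and 32.1 CPM there, close to their levels in the Ccno cells. Against Foxj1 cells with Tmem212, 17 of the 33 were higher and 2 lower, where 6.09% of all 11945 genes were higher and 5.33% lower. Deup1 was 10.1-fold (95% interval 8.94 to 11.46) higher in the Ccno cells than in that group.

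Hyls1, Ccdc61 and Nek2 were outside the list and are named because they were among the 15 such genes with the largest ratio over Foxj1 cells without Ccno, so their direction there was fixed by that choice. Hyls1, a centriole protein needed for cilia, was at 194 CPM against 4.23 CPM in Foxj1 cells without Ccno, 45.9-fold (95% interval 32.2 to 67.9), and 23.3 CPM in dividing cells. Ccdc61, a protein of basal body anchoring, was at 291 CPM against 28.8 and 28.0 CPM. Nek2, a kinase of centrosome separation, was at 124 CPM against 9.69 and 44.6 CPM.

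Cell cycle genes split in the Ccno cells. Top2a, the DNA topoisomerase of dividing cells, ran from 0 to 42 UMIs per cell with a median of 12, and its level was 657 CPM (95% interval 636 to 678) against 72.5 CPM in Foxj1 cells without Ccno. Cdk1, the kinase of mitotic entry, was at 393 CPM (95% interval 376 to 409), against 28.8 CPM in Foxj1 cells without Ccno and 438 CPM in dividing cells. Mki67, the most used marker of cycling cells, had 68 UMIs in 34 of the 287 cells, a level of 12.1 CPM (95% interval 9.43 to 15.4). In dividing cells it stood at 559 CPM, 46.0-fold (95% interval 36.2 to 59.4) higher, and in Foxj1 cells without Ccno at 26.2 CPM. That last order turned when cells with a UMI of the oligodendrocyte precursor genes Pdgfra, Cspg4, Sox10 or Olig1 were left out, to 6.72 CPM (10 UMIs) in 85 Ccno cells against 1.38 CPM (3 UMIs) in 170 Foxj1 cells. Cdk1 was then at 402 CPM against 265 CPM in the 7 dividing cells left, which also turns its order. Over all 287 and 482 cells, the Ccno cells held 1.85 Mki67 UMIs for each 100 Top2a UMIs (95% interval 1.43 to 2.35) and the dividing cells 51.0 (49.0 to 53.1). In the Ccno cells the value was 1.05 without called doublets and 1.03 without cells with such precursor UMIs. Top2a chose the dividing cells, so its level there is set in part by the rule. Mki67 was in no rule, but genes that vary with Top2a, Mki67 among them, are high there in part by that choice. The same limit holds for the counts of cell cycle genes against dividing cells below. The promoters of Top2a and Mki67 above each hold 2 CHR elements, with 6 and 3 CCAAT boxes. Whether these motifs bear on the levels was not tested.

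The contrast remained when every cell was thinned to 2000 UMIs. A Top2a UMI was then found in 69.0% of the Ccno cells and 79.9% of the dividing cells (94.8% and 100% before thinning), and a Cdk1 UMI in 53.0% and 50.8%. For Mki67 the thinned shares were 2.79% and 56.6%, and 11.8% of the Ccno cells had a UMI before thinning, against 2.93% of the Snap25 cells. The Mki67 UMIs were unevenly spread. Of the 34 cells that had any, 26 had 1, while 3 cells with at least 5 UMIs held 29 of the 68. The 16 called doublets held 32 of the 68, and without them the level was 6.96 CPM. Of the 482 dividing cells, 475 had a UMI of the oligodendrocyte precursor genes Pdgfra, Cspg4, Sox10 or Olig1, as had 202 of the 287 Ccno cells (70.4%). The share was 81.0% over all P7 cells and 67.7% over the Snap25 cells. In the 73 dividing cells with no Pdgfra or Sox10 UMI, a group added after the data were seen, Top2a was at 1088 CPM, Cdk1 at 436 CPM and Mki67 at 603 CPM. Of these 73 cells, 66 still had a UMI of Cspg4 or Olig1.

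Over the list of mitotic entry and M phase, 41 of 59 genes were past the fold higher in the Ccno cells than in Foxj1 cells without Ccno and 0 lower (8.15% and 12.2% of all genes), a median of 1.44 on the log2 scale. Set against dividing cells, 2 of 61 were higher and 42 lower (17.9% and 20.2% of all genes). The median gene stood at 31.5% of its level in dividing cells, with a wide spread: 18 genes were at 50% or more and 21 at 20% or less. Genes at or above the dividing cells' level included Cdc20, the activator of the anaphase-promoting complex (APC/C), at 234 against 228 CPM. Cks2, a small partner of CDK1, was at 306 against 284 CPM, and H2afx, the histone variant of DNA damage signalling, at 1198 against 626 CPM. Ckap2l, a spindle protein, was at 326 against 192 CPM, and Pttg1, the securin that holds sister chromatids together, at 322 against 137 CPM. The cyclin B genes were below the dividing level, Ccnb1 at 146 against 357 CPM and Ccnb2, among the 18, at 108 against 156 CPM.

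The 21 mitotic genes at 20% or less of the dividing level were of several kinds. Nusap1, a spindle protein, was at 8.58 against 246 CPM, Aurkb, the kinase of the chromosomal passenger complex, at 21.3 against 184 CPM, and Ube2c, an APC/C enzyme, at 99.7 against 726 CPM. Aurka, the aurora kinase of centrosomes and cilia, was not among them, at 53.6 against 107 CPM. The mitotic cyclin A2 gene Ccna2 was at 9.65 against 322 CPM, 33.4-fold (95% interval 25.5 to 44.6) higher in dividing cells.

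**Figure D2:**
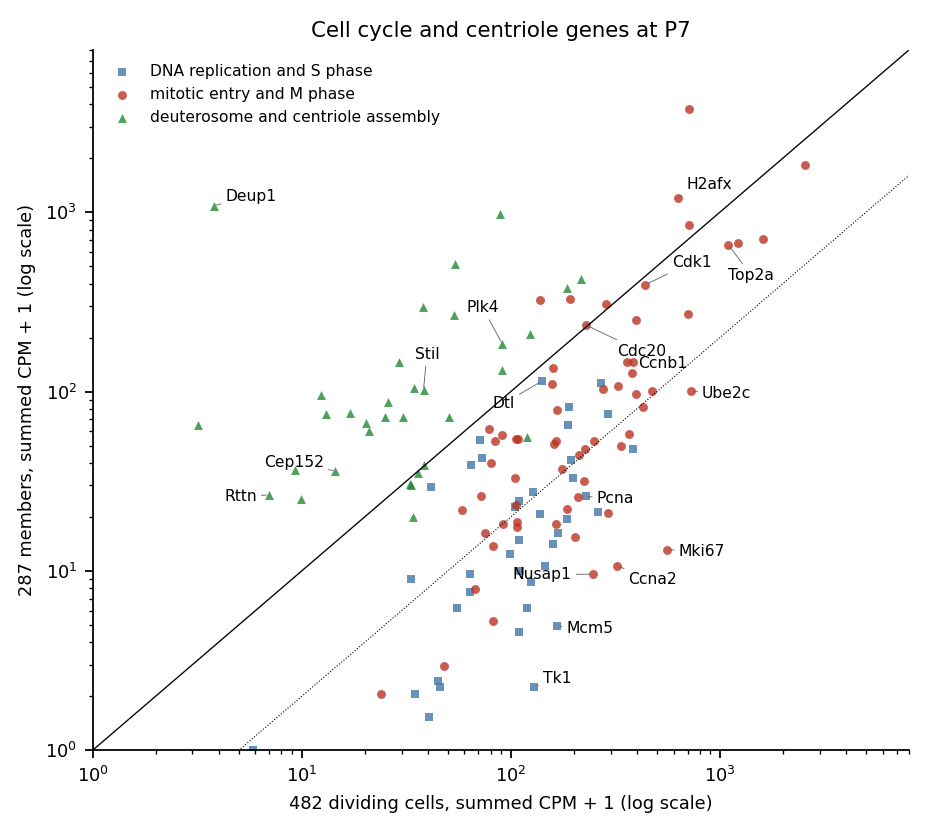
Genes of DNA replication (squares), mitosis (circles) and centriole assembly (triangles) by summed CPM + 1 in the 482 dividing cells (x axis) and in the 287 members (y axis), both on log scales. The solid line marks equal levels and the dotted line a level 5-fold lower in members. Centriole genes lie mostly above the solid line, Cdk1 and Cdc20 lie near it, and Mki67, Ccna2, Mcm5 and Tk1 lie below the dotted line.

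DNA replication genes were lower in the Ccno cells than in dividing cells. Of 38 that passed the filter against dividing cells, 0 were past the fold higher and 33 lower, with a median of -2.56 on the log2 scale against -0.18 over all genes, and 24 stood at 20% or less of the dividing level. Tk1, thymidine kinase, had 7 UMIs in all 287 cells, 1.25 CPM against 128 CPM. Mcm5, of the replicative helicase, was at 3.93 against 166 CPM and Pcna, the sliding clamp, at 25 against 227 CPM. Genes under 5 CPM in the Ccno cells, Tk1 and Mcm5 among them, passed the filter only through the dividing cells. They could not be counted as higher, which limits the count and the median above. The 5 genes at 50% or more of the dividing level were Gins1, Gins2, Cdt1, Chaf1a and Dtl. Dtl, a subunit of the ubiquitin ligase that clears the licensing factor CDT1, was at 113 CPM against 139 CPM in dividing cells and 12 CPM in Foxj1 cells without Ccno. Against those Foxj1 cells 5 of 33 genes were higher and 5 lower (15.2% each way, where 8.15% and 12.2% of all genes were). Against those with Tmem212, 11 of 30 were higher (36.7%, where 6.09% of all genes were) and 0 lower, with a median of 0.59 on the log2 scale.

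Cyclins, kinase inhibitors and APC/C regulators were mostly lower in the Ccno cells than in dividing cells. Of 36 such genes, 21 were past the fold lower (58.3%, where 20.2% of all genes were) and 5 higher (13.9%, where 17.9% were). Against Foxj1 cells without Ccno, 10 of 30 were higher (33.3%, where 8.15% of all genes were) and 3 lower (10%, where 12.2% were). The D-type cyclin Ccnd1, of entry into the cycle, was at 10.4 CPM against 266 CPM in dividing cells and 69.0 CPM in Foxj1 cells without Ccno. Cdkn1a, the inhibitor p21, was at 439 CPM (95% interval 422 to 457), against 22.5 and 74.0 CPM, and 98.3% of the cells had a UMI. The log2 ratio of Cdkn1a was 2.49 over Foxj1 cells without Ccno and 1.73 over those with Tmem212. E2f7, a repressor of E2F target genes, was at 113 CPM against 32.1 and 3.00 CPM. The APC/C inhibitor Fbxo5 was at 2.32 CPM against 136 CPM in dividing cells, and passed the filter there only through the dividing cells. Its relative Fbxo43, best known from egg cells, was at 13.4 CPM and had 0 UMIs in dividing cells. Fbxo43 and Cdc20b, also at 0 UMIs there, passed the filter against dividing cells only through the Ccno cells. So did E2f7, Fbxo43 and Cdc20b against Foxj1 cells without Ccno. Ccna1, the cyclin A gene of germ cells and multiciliated cells, was at 347 CPM against 5.00 CPM in dividing cells and 113 CPM in Foxj1 cells without Ccno, but at 322 CPM in those with Tmem212. Summed over the 287 cells, Ccna2 had 54 UMIs and Ccna1 1944.

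Genes of the moving cilium were on in the Ccno cells, and how they compared depended on which Foxj1 cells they were set against. Against the 495 Foxj1 cells without Ccno, 8 of 29 genes of axonemal dynein and its assembly were past the fold higher and 0 lower, and 17 of 62 genes of radial spokes, central pair and axoneme were higher and 2 lower (8.15% and 12.2% of all genes). Against the 159 with Tmem212, the counts were 0 higher and 7 lower of 29, and 0 higher and 9 lower of 61 (6.09% and 5.33% of all genes), with medians of -0.55 and -0.41 on the log2 scale. Summed levels of the dynein list were 5370 CPM in the Ccno cells, 2940 CPM in the 495 and 7276 CPM in the 159. Tmem212 chose the 159, so genes that vary with it are high there in part by that choice. The larger group was mixed: the 16 tanycyte markers summed to 1024 CPM and the 12 neuron markers to 1766 CPM in the 495 cells, against 306 and 359 CPM in the 159 and 329 and 340 CPM in the Ccno cells.

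Single genes of the dynein list differed in how they stood to the 2 Foxj1 groups. Zmynd10, which helps fold dynein arms in the cytoplasm, was at 642 CPM in the Ccno cells, 154 CPM in the 495 and 389.5 CPM in the 159. The heavy chain genes named here were lower than in the 159: Dnah6 at 154, 143 and 379 CPM, Dnah9 at 139.9, 140.0 and 347 CPM, and Dnah3 at 45.4, 62.5 and 182 CPM. For Dnah3 the 159 cells were 4.00-fold (95% interval 3.42 to 4.68) higher. Tctex1d4, a dynein light chain relative, was at 101, 149 and 429.5 CPM. Rsph1, detected in 99.3% of the Ccno cells, was at 1353, 586 and 1536 CPM, past the fold higher against the 495 and on the other side of equality (-0.18 on the log2 scale) against the 159. Stoml3, a stomatin-like membrane protein gene, was at 4.29, 21.4 and 62.0 CPM.

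Genes of intraflagellar transport, which carries parts along a growing cilium, were also counted. Of 36, 7 were past the fold higher than in the 495 cells (19.4%, where 8.15% of all genes were) with 0 lower. Against the 159, 2 were higher (5.56%) and 1 lower (2.78%), near or under the 6.09% and 5.33% of all genes. The list summed to 6053 CPM in the Ccno cells, 3496 CPM in the 495 and 5927 CPM in the 159. Single genes lower than in the 159 included Ift57, at 114, 108 and 162 CPM, and Kif27, at 51.5, 40.7 and 81.2 CPM. Ift88, which also acts at centrosomes and stands in the centriole list, was at 35.6, 51.7 and 102 CPM. The intraflagellar transport list summed to 6053 CPM in the Ccno cells and 1278 CPM in dividing cells, the dynein list to 5370 and 80.2 CPM, and the radial spoke and axoneme list to 19508 and 481 CPM. Most genes of the last 2 lists could pass the filter there only through the Ccno cells, so they are not counted against dividing cells.

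Ependymal maturation genes also compared differently with the 2 Foxj1 groups. Against the 495, 2 of 21 were past the fold higher and 5 lower (8.15% and 12.2% of all genes), with a median of -0.01 on the log2 scale against -0.09 over all genes. Against the 159 with Tmem212, itself an ependymal gene, 0 of 20 were past the fold higher and 10 lower (6.09% and 5.33% of all genes), with a median of -1.0 on the log2 scale, against 0.00 over all genes. Calml4, a calmodulin relative, was at 127 CPM against 415 CPM, S100b at 53.2 against 257 CPM (4.83-fold (95% interval 4.20 to 5.56) higher in the latter) and Ccdc153 at 459 against 1339.7 CPM. Hdc, which makes histamine, was at 391 against 854 CPM. Vim, the intermediate filament of glia and ependyma, was at 384 CPM in the Ccno cells against 1012 CPM in the 495 and 935 CPM in the 159, and Nnat, neuronatin, at 1270.3, 5361 and 4068 CPM. Of 23 planar polarity genes, which align cilia, 0 were higher and 2 lower (8.70%, where 12.2% of all genes were) against the 495, and 0 higher and 1 lower (4.35%, where 5.33% were) against the 159, so the lower shares were near those of all genes.

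**Figure D3:**
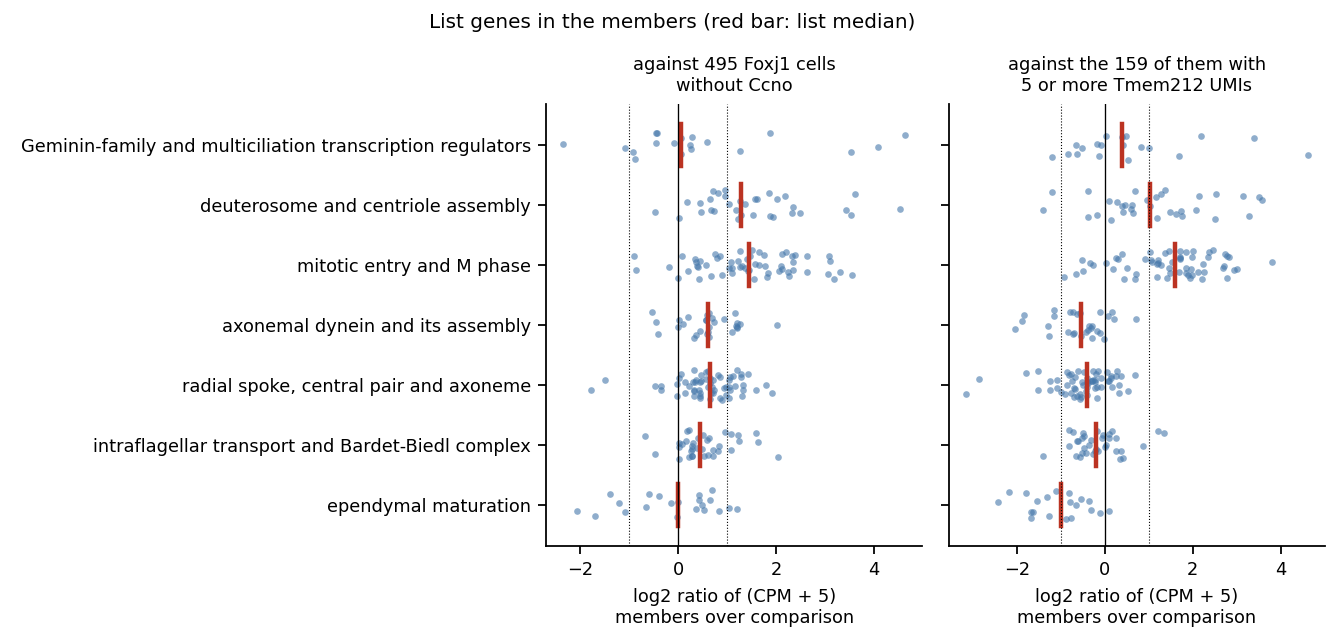
Log2 ratio of (CPM + 5), members over comparison cells (x axis), for the genes of 7 lists (rows, 1 point a gene, red bar the list median) that passed the filter. Dotted lines mark the 2-fold limits. The median of the dynein list is 0.61 against the 495 Foxj1 cells without Ccno and -0.55 against the 159 of them with at least 5 Tmem212 UMIs, while the median of the M phase list is 1.44 and 1.61.

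Ordering all 904 Foxj1 cells by their Ccno count showed which genes went with it. Cells were split at 0, 1 to 2, 3 to 9, 10 to 19, 20 to 29 and at least 30 Ccno UMIs, with 495, 122, 80, 74, 65 and 68 cells. Median UMIs per cell ran from 13071 without Ccno to 22463.5 at 30 or more, so a high Ccno count also marks deeper cells. The bin at 0 was mixed: 230 of its 495 cells had at least 8 of the 12 ependymal markers, against 276 of the 287 members. How far this bears on the steps up from 0 Ccno UMIs was not tested. Mcidas was at 0.682, 1.42, 44.4, 155, 185 and 160.5 CPM, near 0 below the threshold and on a plateau from 10 UMIs up. Deup1 was at 42.3, 244, 629.7, 1199.8, 1179.6 and 1315 CPM and was higher at 1 to 2 Ccno UMIs than at 0. Plk4 was at 12.4, 16.6, 73.4, 190.1, 228 and 239 CPM, low in the first 2 bins like Mcidas.

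Ccna1 and Tmem212 were highest at fewer Ccno UMIs. Ccna1 stood at 113, 464, 524, 248, 299.5 and 317 CPM, highest at 1 to 9 Ccno UMIs. Tmem212 stood at 534, 1037, 819.5, 411, 445 and 426 CPM, highest at 1 to 2. Top2a was at 72.5, 195, 465, 644, 756 and 750.3 CPM. Mki67 never exceeded 26.7 CPM in any bin. It was at 4.26 CPM where Top2a was at 195 CPM.

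**Figure D4:**
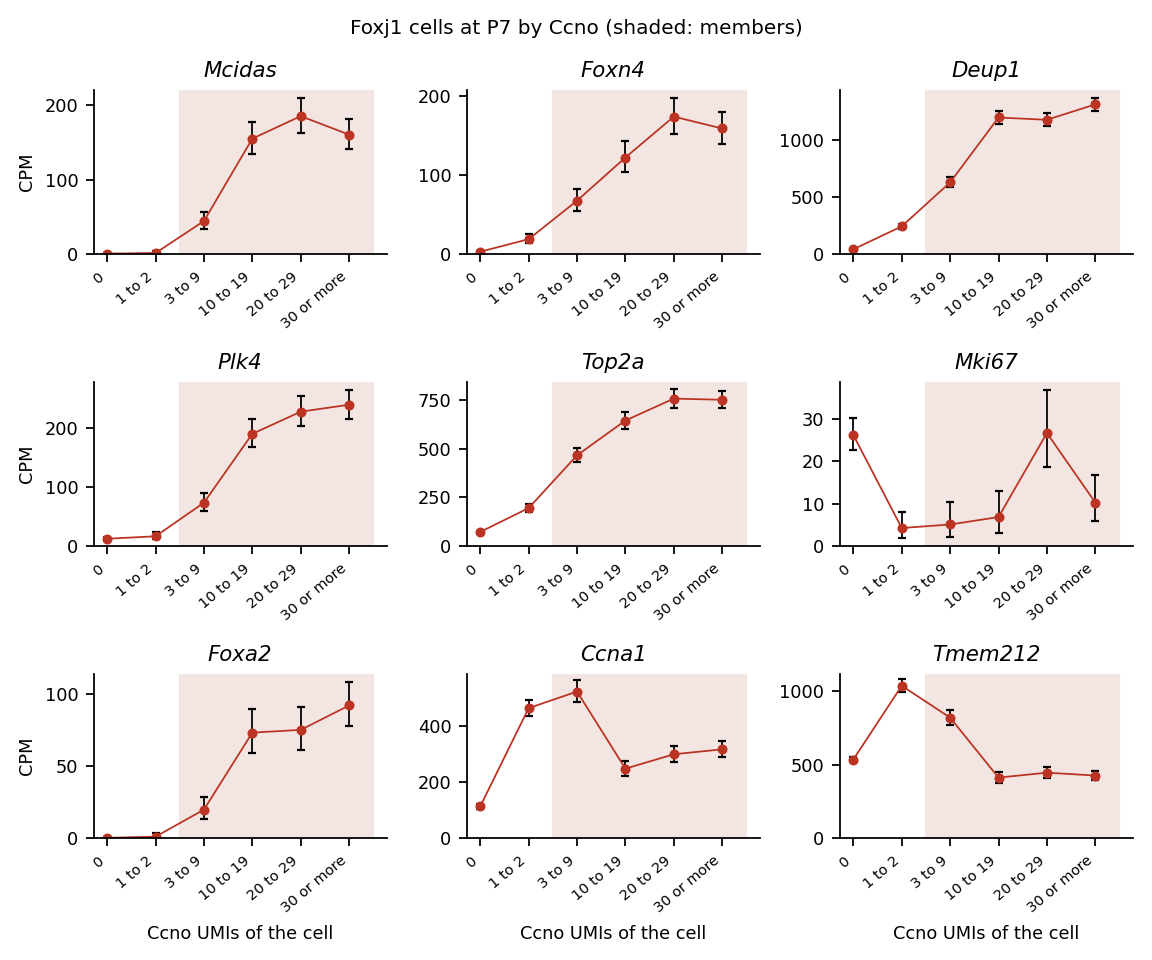
Summed CPM (y axis, from 0) of 9 genes in the 904 P7 cells with at least 2 Foxj1 UMIs, split by the Ccno UMIs of the cell (x axis). Bars are exact Poisson 95% intervals and shading marks the members. Mcidas, Plk4 and Foxa2 are near 0 outside the shading, Deup1 and Top2a are higher within it, and Ccna1 and Tmem212 are highest at 1 to 9 and 1 to 2 Ccno UMIs.

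Within the 287 cells, the share of UMIs in the 2 axoneme lists ran from 0.588% to 4.61%. Cells were cut into 3 equal ranges at 2.28% and 2.69%, with 96, 96 and 95 cells; 31 and 43 cells lay within 0.1 percentage points of these cuts, so these are ranges of a score and not types. Called doublets were uneven, 14 of the 16 in the lowest range and 1 in each of the others. Values without them, a setting added after the data were seen, are given beside for some of the genes and lists. From the lowest to the highest range Ccna1 was at 121, 293 and 614 CPM (117, 312 and 624 without doublets). Crip3, a LIM domain protein gene, was at 136, 415 and 771 CPM (111, 459.7 and 779). Both were lowest in the cells with the least axoneme RNA.

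Mcidas and Pcna had the reverse order. Mcidas was at 174, 167 and 71.4 CPM (187, 162 and 70.8 without doublets) and Pcna at 55.8, 16.4 and 5.29 CPM (55.9, 15.2 and 3.93). Cdt1, the DNA licensing factor, was at 71.7, 33.9 and 10.1 CPM. Top2a was highest in the middle range, at 518, 783 and 655 CPM, and Deup1 at 1059.9, 1308 and 884 CPM. Without called doublets the log2 difference between highest and lowest range was 0.32 for Top2a and -0.39 for Deup1, against 0.34 and -0.26. With the ranges cut by the ependymal maturation list in place of the axoneme lists, the highest range was lower in Top2a than the lowest (log2 -0.55, against 0.34). The other differences between highest and lowest shrank, to 0.98 from 2.35 for Ccna1, to -0.67 from -3.40 for Pcna and to -0.51 from -1.28 for Mcidas, except that of Deup1, at -0.48 from -0.26.

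By list, 17 of 31 DNA replication genes were at least 2-fold lower in the highest than in the lowest range, where 5.74% of all 11673 genes were, and 0 were higher, where 3.14% were. Without called doublets the count was 12 of 30, where 4.68% of 11503 genes were lower and 3.36% higher. Of the 12 astrocyte markers 11 were lower in the highest range (10 without doublets) and of the 12 radial glia markers 7 (7 without doublets). Of 8 oligodendrocyte precursor markers 5 were lower (3 without doublets), and the list summed to 388 CPM in the lowest and 151 CPM in the highest range (254 and 116 CPM without doublets). Of 4 oligodendrocyte markers 3 were lower (3 without doublets). Slc1a3, a glutamate transporter of radial glia and astrocytes, was at 713, 228 and 131 CPM (719.7, 203 and 132 without doublets). Neuron markers went with the doublets, 5 of 12 lower with them and 0 of 10 without. The part of doublets and of free glial RNA in the remaining order was not tested.

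**Figure D5:**
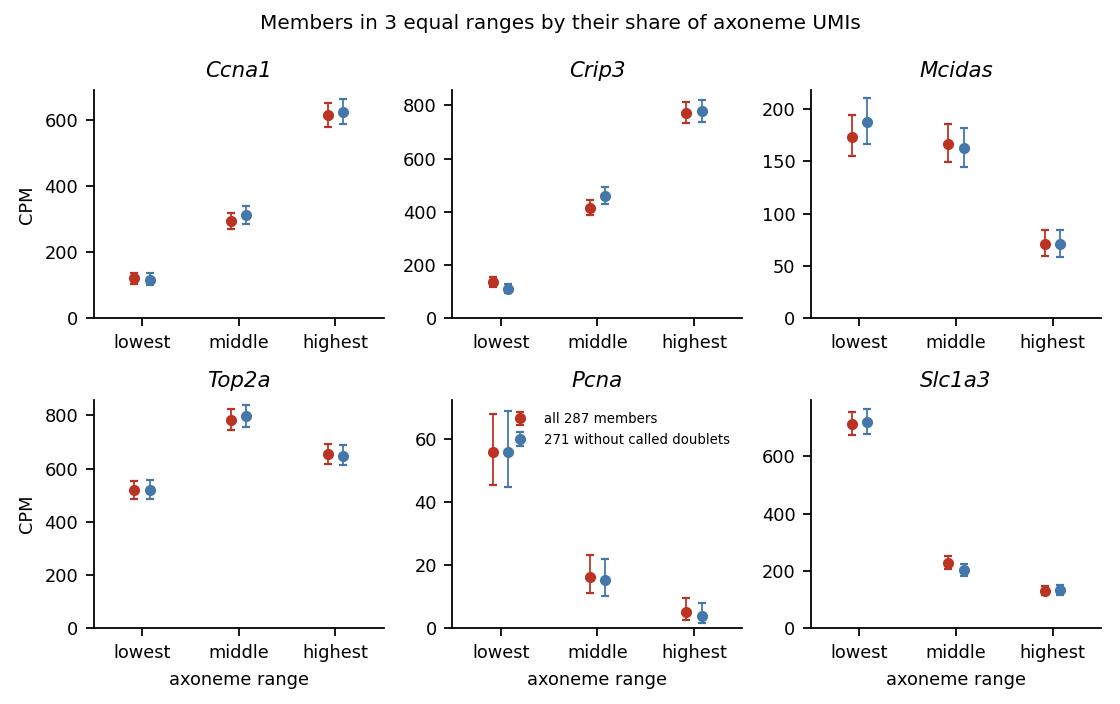
Summed CPM (y axis, from 0) of 6 genes in the lowest, middle and highest range of the members by their share of axoneme UMIs (x axis), over all 287 members (red) and the 271 not called doublets (blue), with exact Poisson 95% intervals. Ccna1 and Crip3 are highest and Mcidas, Pcna and Slc1a3 lowest in the highest range, and Top2a is highest in the middle range in both sets.

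Most markers of tanycytes, the Rax-expressing cells of the third ventricle's floor, were lower in the Ccno cells than in Foxj1 cells without Ccno. The 16 markers summed to 329 CPM in the Ccno cells and 1024 CPM in the 495. In the 159 with Tmem212 the sum was no higher, at 306 CPM. Rax itself was at 10.0 CPM with a UMI in 15.7% of the cells, against 86.0 CPM in Foxj1 cells without Ccno, 7.2 CPM in those with Tmem212 and 566 CPM in 245 P7 cells with at least 3 Rax and under 2 Foxj1 UMIs. Of 14 tanycyte markers, 13 were past the fold lower than in Foxj1 cells without Ccno and 1, Lhx2, higher (12.2% and 8.15% of all genes). Against the 159 with Tmem212, 5 of 11 were lower and 1, again Lhx2, higher (5.33% and 6.09% of all genes). Of 16 regional transcription factors, 6 were lower and 2 higher than in the 495 (12.2% and 8.15% of all genes), and 2 lower and 1 higher than in the 159 (5.33% and 6.09%). The 2 higher were Lhx2, at 179 CPM against 77.4 CPM in the 495 and 32.0 CPM in the 159, and Irx5, at 48.2, 18 and 40 CPM. Six3 and Nkx2-1, of the hypothalamic field, were at 159.7 and 28.8 CPM, against 306 and 89.8 CPM in the 495 and 254 and 39.2 CPM in the 159.

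Of 12 radial glia markers 8 were lower than in the 495 cells with 0 higher, and 3 were lower than in the 159 (12.2% and 5.33% of all genes were lower). Sox9 was at 382, 648 and 1059 CPM, Sox2 at 273, 509 and 389.9 CPM, and Hes5, a Notch target, at 39.7, 121 and 41.6 CPM, with 477 CPM in dividing cells. Of the 26 Notch, BMP and Wnt genes, 1 was higher than in the 495 and 6 lower (23.1%, where 12.2% of all genes were lower). Against the 159, 2 of 25 were higher (8%, near the 6.09% of all genes) and 0 lower. Id3 was at 26.0 CPM in the 159, under its level in the Ccno cells. The 10 intermediate progenitor markers summed to 648 CPM in the Ccno cells, 1056 CPM in the 495 and 648 CPM in dividing cells. The equal sums hide differences by gene: 5 of the 7 that passed the filter were lower than in dividing cells and 1 higher, with a median of -1.69 on the log2 scale. Of all genes, 20.2% were lower than in dividing cells and 17.9% higher.

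Summed levels of markers of other cell types differed by type. The 10 oligodendrocyte precursor markers summed to 229 CPM in the Ccno cells (0 to 4634 CPM per cell) against 4826 CPM in dividing cells, and all 8 that passed the filter were lower (20.2% of all genes). The 12 astrocyte markers summed to 890 CPM, with 9 lower and 0 higher than in the 495, whose sum was 2562 CPM, and 2 lower and 0 higher than in the 159, whose sum was 1407 CPM (12.2% and 5.33% of all genes were lower). Among the 12 neuron markers 11 were lower than in the 495 and 0 past the fold against the 159. Oligodendrocyte markers summed to 278 CPM, against 454 CPM in the 8630 other P7 cells, and erythroid markers to 12.7 CPM against 109 CPM. Microglia markers were at 38.9 CPM against 37.3 CPM, with Tmem119 at 0 UMIs as in the other 3 groups compared.

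Other lists were no lower than in other P7 cells. The endothelial and mural markers summed to 28.2 CPM, 2.15-fold the other P7 cells, beside 46.3 CPM in the 495 and 26.4 CPM in the 159, and 5 of the 10 (Cdh5, Ly6c1, Rgs5, Kcnj8 and Vtn) were at 0 UMIs. The 6 fibroblast markers summed to 46.8 CPM, 3.02-fold the other P7 cells, beside 61.0 and 79.2 CPM in the 495 and the 159, and Col3a1 and Lum were at 0 in all of these Foxj1 groups. The 8 choroid plexus markers summed to 27.0 CPM, 1.51-fold the other P7 cells, beside 37.7 and 75.6 CPM.

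Outside the lists, the 15 genes with the largest ratio over Foxj1 cells without Ccno were Shisa8, Hyls1, Foxa2, Smim24, 2310030G06Rik, Plvap, Aard, Nek2, Ccdc61, Ccdc18, Ecscr, Oasl1, Frat2, Lrat and Tesmin. Shisa8, of a family of membrane proteins that bind glutamate receptors, ran to 58 UMIs per cell with a median of 13 and was at 662 CPM against 20.9 CPM, 31.7-fold (95% interval 27.0 to 37.5). Plvap and Ecscr, best known from blood vessels, were at 184 and 99.7 CPM against 12 and 8.32 CPM, beside the 28.2 CPM of the summed endothelial and mural list. Lrat, which stores vitamin A as its ester, was at 40.7 against 1.23 CPM, Tesmin, best known from testis, at 50.4 against 2.59 CPM, and Oasl1, of the interferon-induced family, at 46.1 against 1.64 CPM.

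Foxa2, a forkhead factor best known from the floor plate and endoderm, was found in 123 of the 287 cells (42.9%), with up to 16 UMIs in a cell. Its level was 65.6 CPM (95% interval 59.0 to 72.6), against 1 UMI in all 495 Foxj1 cells without Ccno, 0 UMIs in dividing cells and 0.196 CPM over the 8630 other P7 cells, of which 0.255% had a UMI. Within the Ccno series it was at 0.136, 0.946, 19.6, 73.0, 74.9 and 91.8 CPM. All 123 cells with Foxa2 also had Deup1, which 280 of the 287 cells had.

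The 15 genes lowest against Foxj1 cells without Ccno were Thrsp, Mfap2, Nrgn, Mef2c, S100a4, Mpped2, Kctd14, Mest, Npy, Csrp1, 6330403K07Rik, Snhg11, Gap43, Stmn4 and Rmst, and several of these depended on that mixed group. Thrsp, a gene of lipid synthesis, was at 2.14 CPM against 75.3 CPM in the 495, 9.20 CPM in the 159 and 244 CPM in the Rax cells. Mfap2, of the extracellular matrix, was at 9.83, 126, 15.2 and 291 CPM, and Gap43, of growing nerve fibres, at 74.9, 463, 85.6 and 492 CPM. In each case the 159 lay nearer to the Ccno cells than the 495 did.

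Against dividing cells the 15 highest genes outside the lists were Lrrc23, 1700001C02Rik, Tm4sf1, Morn5, Ctsh, 1700016K19Rik, Odf3b, Dlx4, Crip3, Capsl, Dmkn, Rnase4, Wdr63, 1700007G11Rik and 6820408C15Rik. Lrrc23, of the radial spoke, was at 1373 CPM against 6.57 CPM, and Dlx4, a homeobox gene, at 328 CPM against 0.313 CPM in dividing cells and 43.8 CPM in Foxj1 cells without Ccno. The 15 lowest were Pclaf, Pcdh11x, Pcdh15, Hist1h2ap, Car8, Cntn1, Matn4, Mfsd2a, Esco2, Sapcd2, Neil3, Pid1, Phlda1, Ptpre and Pimreg. Pclaf, a PCNA-binding factor, was at 11.8 against 639 CPM. Pid1 was at 11 against 268 CPM, and at 104 CPM in the dividing cells with no Pdgfra or Sox10 UMI.

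Over the 904 Foxj1 cells thinned to 2000 UMIs, the genes whose counts were most like those of Ccno among 11415 ranked were Shisa8 (Spearman rho 0.65), Deup1 (0.63), H2afx (0.60), Myb (0.57) and Hsp90aa1 (0.55). Foxj1, which also chose the cells, H2afz, Tuba1b, Ndufaf3 and Ptges3 followed at 0.51, 0.51, 0.50, 0.50 and 0.49. The cells share 1 library, and the values describe it without a test. The 904 cells include the mixed 495 without Ccno, and the part of cell type in these values was not tested. Hsp90aa1, an abundant chaperone gene, was at 12267 CPM in the Ccno cells, 3539 CPM in the 495 and 1403 CPM in dividing cells.

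The same counts were nearly absent at earlier ages. The rule found 5 of 5114 cells at E11, 0 of 17150 at E14 (3 cells would be 0.0175%) and 15 of 12080 at P0 (0.124%, interval 0.0695 to 0.205), against 3.22% at P7. Median UMIs per cell were 14781, 8444.5, 9351 and 11174 at the 4 ages, so the E11 cells were deeper than those of P7. Age and library cannot be told apart here, since each age was 1 sample.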

How the data were processed

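Hypothalamic cells were sorted and sequenced with 10x Genomics 3-prime version 3 chemistry, 1 sample per age. The authors deposited unnormalized counts of UMIs, with 28879 genes as rows and 43261 cells as columns. Cell Ranger 3.0.2, Seurat and build mm10 are named per the submitters' processing notes, and filters and annotation are not given in the sources used here. All deposited counts were whole and none was negative. Cells held 2001 to 7998 genes and 2956 to 49935 UMIs per cell, and at most 5.00% mitochondrial UMIs.

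Members and gene lists were chosen with earlier results of these data known. Counts were summed per group with Python 3.11.15, numpy 2.4.6, scipy 1.17.1 and pandas 2.3.3, and plots made with matplotlib 3.10.9. Doublets were called with Scrublet in scanpy 1.11.5 (expected share 6%) and kept. The fold count and the ratio interval were tested on simulated Poisson counts, which have no spread between cells. Thinning was checked on real cells for its total of UMIs only. Of 516 list genes, 514 were in the table. Named genes were those of the lists, then the 15 others with the largest ratio each way with at least 20 CPM and a UMI in at least 10% of cells of the higher group, and the 10 most like Ccno by Spearman rho. Positions came from GENCODE M21 and promoters from RefSeq. Alternatives changed the thresholds, the comparison cells, the CPM added, the filter, and the doublets kept.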

Additional observations from a re-analysis of the deposited data

Results flagged for a closer look

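Cells outside the P7 sample also met the count thresholds. At E11 there were 5 of 5114 cells (0.0978%, exact 95% interval 0.0318 to 0.228), all in the run numbered 2. All 5 had an Mcidas UMI and 3 had Deup1, but Rsph1 had 1 UMI in 1 cell, Sox2, a gene of neural progenitors, 2 UMIs in 2 cells, and tdTomato was found in 2 of the 5. Which cell type they are was not tested. At P0 there were 15 of 12080 cells, 4 in run 1 and 11 in run 2. Deup1 was found in 13 of them, Myb in 13, Top2a in 12, Rsph1 in 14, Foxa2 in 2, and Sox2 and tdTomato in all 15. Mki67 was at 23.6 CPM with 5 UMIs, beside Top2a at 533 CPM.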

How the results depend on the processing

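The number of members stayed within 251 to 320 under the 6 other thresholds and doublet settings tried. Mki67 UMIs per 100 Top2a UMIs were 1.05 in members without called doublets and 1.03 without cells holding oligodendrocyte precursor UMIs, against 1.85. In dividing cells they were 67.8 without such cells, 55.4 with no Pdgfra or Sox10 UMI (added after seeing the data) and 54.4 with dividing cells chosen by Cdk1, against 51.0. List genes past the fold against Foxj1 cells without Ccno numbered 113 higher and 75 lower. With 20 CPM added these were 75 and 40, and with Tmem212 in the comparison cells, added after seeing the data, 44 were lower, while Rsph1 went to -0.18. Against dividing cells, 192 were higher and 141 lower, within 1.5 times under the alternatives tried. With ranges by the ependymal maturation list, the log2 differences between the highest and lowest range were 0.98 for Ccna1, -0.67 for Pcna, -0.51 for Mcidas, -0.48 for Deup1 and, reversed, -0.55 for Top2a, and without called doublets -0.39 for Deup1. The cause of these shifts was not tested. Of 426 other log2 ratios of single genes, 306 stayed within the 95% counting interval of the reported ratio and 120 did not, of which 55 moved by over 1.5 times. The sign changed in 13, of which 5 came from leaving out cells with oligodendrocyte precursor UMIs: against Foxj1 cells without Ccno, Mki67 went from -0.86 to 0.88, Ccna2 from -0.91 to 0.34 and Dnah6 from 0.10 to -0.41, and against dividing cells Cdk1 went from -0.15 to 0.59 and Vim from 0.05 to -1.40. With Tmem212 in the comparison cells, Dnah5 went from 0.19 to -1.16, Dnah6 to -1.27 and Pcna from -0.61 to 0.24. No paired analysis was possible because there is 1 sample per age. Depth limits ratios that rest on few UMIs, such as the 5 of Mcidas in Foxj1 cells without Ccno. UMIs found in cells of other types limit shares of cells, as 18.9% of the Snap25 cells had a Foxj1 UMI.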
